A study of Mus musculus with 2 samples.

Results

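Mir335, Mir483, Mir675, Mir296 and Mir298 are miRNA genes in or beside the imprinted genes Mest, Igf2, H19 and Nespas/Gnas, outside the large miRNA clusters at Dlk1-Dio3 and Sfmbt2. They were chosen by gene symbol from the 1973 miRNA genes counted, and all 5 symbols were found. Small RNA was sequenced from limbs of B6NCrl mouse embryos at embryonic day 13.5, with male and female embryos pooled, healthy and untreated. The series holds 1 group of 2 biological replicates from separate tissue samples that share a donor label. No other tissue, genotype or treatment enters it, so the values below describe these genes in 1 tissue, and the spread between the 2 libraries may in part be technical.

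Genomic imprinting marks a gene in the germ line of a parent so that the embryo expresses mainly the copy from that parent. Mest, Igf2 and Nespas are known to be expressed from the paternal copy and H19 from the maternal copy. Igf2 encodes a fetal growth factor, H19 is an abundant long non-coding RNA of fetal tissues, and Mest is named for its expression in embryonic mesoderm. Gnas encodes the stimulatory G protein alpha subunit, and Nespas is a non-coding antisense RNA of that locus. A miRNA gene is transcribed as a hairpin from which short mature RNAs are cut, 1 from each arm (5p and 3p). The seed, bases 2 to 8 of the mature RNA, does most of the pairing with target mRNAs. The counts are per hairpin gene, so they tell neither the arms nor the parental copies apart.

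The mature sequences of the 5 genes are shown because the seeds decide which other miRNAs could share their targets. They are the RefSeq entries on GRCm38.p6, the same build as mm10, written 5′ to 3′ with the seed in capitals.
miR-335-5p: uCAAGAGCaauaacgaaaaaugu
miR-335-3p: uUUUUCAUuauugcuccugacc
miR-483-5p: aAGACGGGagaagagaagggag
miR-483-3p: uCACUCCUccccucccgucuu
miR-675-5p: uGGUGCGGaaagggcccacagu
miR-675-3p: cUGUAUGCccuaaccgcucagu
miR-296-5p: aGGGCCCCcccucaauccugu
miR-296-3p: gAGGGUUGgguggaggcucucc
miR-298-5p: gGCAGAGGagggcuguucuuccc
miR-298-3p: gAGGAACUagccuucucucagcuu
The 10 mature sequences, 21 to 24 bases long, have 10 different seeds. None of these seeds occurs in a mature miRNA of another gene among the 1738 mouse sequences of the RefSeq table. Of the 1398 distinct seeds in that table, 84.5% belong to 1 gene, so a seed of its own is common. By seed, then, the 5 genes form 5 separate families with no relative in the table. What groups them is the choice itself, made for a position in or beside imprinted genes.

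The hairpins of the most and the least abundant of the 5 genes are given whole, with both mature arms in capitals. They are the RefSeq hairpins, whose sequence and span equal those of GENCODE M21 for all 5 genes.
Mir335: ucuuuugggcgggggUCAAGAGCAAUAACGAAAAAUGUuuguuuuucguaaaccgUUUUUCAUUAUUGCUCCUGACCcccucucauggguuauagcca
Mir675: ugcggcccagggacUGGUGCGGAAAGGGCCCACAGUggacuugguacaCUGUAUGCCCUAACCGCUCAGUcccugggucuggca
The Mir335 hairpin is 98 bases long and 42.9% G and C, and the Mir675 hairpin is 84 bases long and 63.1% G and C. The Mir296, Mir483 and Mir298 hairpins are 63.3%, 58.9% and 53.7% G and C, so Mir335 is the lowest of the 5. The median over the 372 hairpin genes detected in these libraries was 50.5%. By predicted folding (RNAfold), Mir675 had a minimum free energy of -0.667 kcal/mol per base, and 1.34% of detected hairpins had a lower one. The same measure was -0.452 kcal/mol per base for Mir335 and -0.435 for the median detected hairpin. The longest stretch that any of the 5 hairpins shares with another counted miRNA hairpin on the sense strand is 12 bases, between Mir298 and Mir8099-1. No mature sequence of the 5 occurs in another annotated transcript, apart from both arms of Mir675, which lie in H19 itself. Copies in the genome outside annotated transcripts were not searched here.

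Mir335 lies on the plus strand at chr6:30741299-30741396 (mm10), inside Mest (chr6:30723547-30748465). It falls in an intron of all 7 Mest transcripts that span it, and Copg2, the imprinted neighbour on the other strand, ends 6.16 kb away. Mir483, on the minus strand at chr7:142654924-142654996, falls in an intron of all 7 Igf2 transcripts that span it (Igf2 at chr7:142650766-142666816). A further protein-coding gene, Gm49394, also overlaps Mir483 on the minus strand, and its exons were not examined. Mir675 lies 77.8 kb further along the same strand at chr7:142577064-142577147, inside H19 (chr7:142575529-142578143). It lies wholly within an exon in 3 of the 4 spanning H19 transcripts and in an intron of the other. Reads of Mir675 and short fragments of that H19 exon cannot be told apart in these counts. Mir296 and Mir298 lie on the minus strand at chr2:174267047-174267125 and chr2:174267504-174267585, 378 bases apart. Neither overlaps any annotated gene in GENCODE M21: the annotated Nespas (chr2:174281237-174295436) runs on the same strand and ends 13.7 kb before Mir298. In this annotation the pair is therefore beside Nespas and Gnas, not inside them. Mir296 and Mir298 are also the only members with another miRNA gene within 10 kb, each other.

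**Figure D1:**
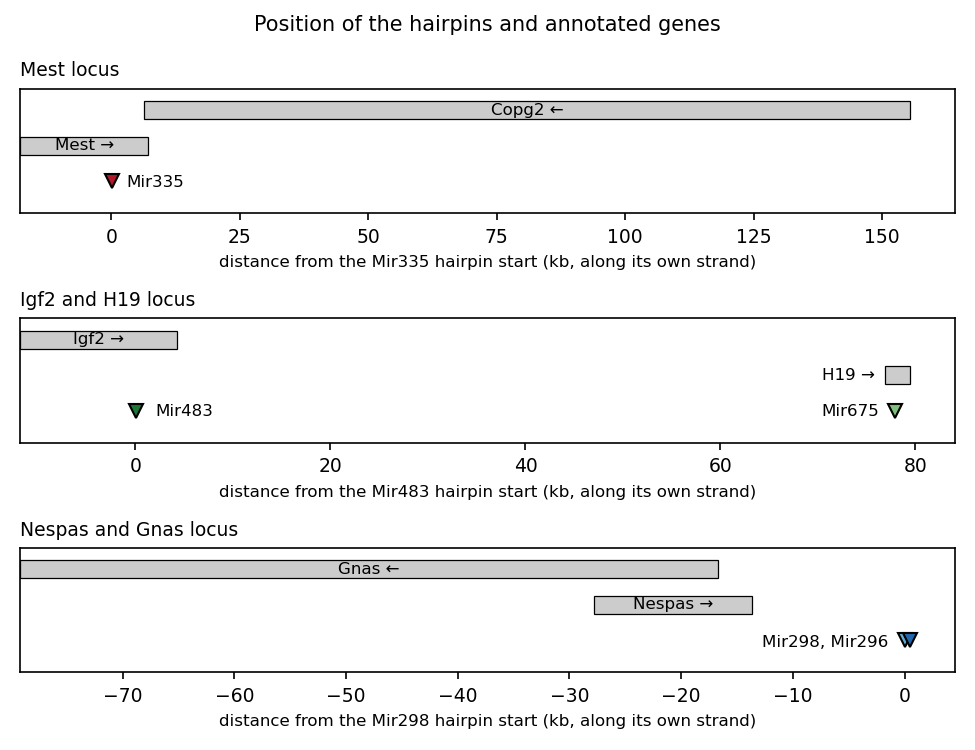
Map of the 3 loci, to scale within each panel: grey bars are annotated genes, arrows give their direction relative to the hairpins, and triangles mark the hairpins. The horizontal axis is the distance in kb from the first hairpin named on it. Mir335, Mir483 and Mir675 lie inside Mest, Igf2 and H19, while Mir296 and Mir298 lie 13.7 kb or more beyond the end of Nespas.

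The libraries held 5927321 and 6003632 sense counts in miRNA genes, and a level in CPM is the sense count per 1000000 of these. The labels give a size range below 30 for the RNA, so each count is a read of a short RNA and levels of hairpin genes are not scaled by length. Intervals cover counting error only, since no molecular identifiers are recorded. The label was checked against marker miRNA genes of limb and other tissues, all of which were detected. Summed levels in replicates 1 and 2 were highest for Hox cluster genes, at 101240 and 92232 CPM, and cartilage, at 48690 and 48605 CPM. Mir196b, at 79590 and 70886 CPM, made up most of the Hox sum, and Mir140, at 46697 and 46556 CPM, most of the cartilage sum. The lists held 4 Hox, 2 cartilage, 5 epithelial and 1 endothelial genes, so the order of the sums depends in part on list size and on single genes. Epithelium had 18691 and 21777 CPM and endothelium 20830 and 19637 CPM. Skeletal muscle had 3991 and 4205 CPM, of which Mir206 alone made up 3741 and 3940 CPM. The muscle genes Mir1a-1, with 1 count in each library, and Mir133a-1, with 0 and 1, were not on the marker list and were looked up after the data were seen. Reads that map to several places are in no gene's count, so genes in numbered copies, such as these, may be undercounted. Their counts therefore do not show that the mature miRNAs are absent. Lower sums were found for blood (443 and 445 CPM), neurons (403 and 418 CPM), liver (152 and 164 CPM), pluripotent cells (132 and 129 CPM) and heart (4.89 and 8.66 CPM). The neuron sum covers Mir137, Mir128-1 and Mir128-2. Other neuronal genes, also looked up after the data were seen, were Mir124a-1, Mir124a-2 and Mir9-2, with 0 counts in each library, and Mir9-3, with 10 and 20. The limit on numbered copies applies to them too. In tissue RNA, fewer cells of a type and less RNA per cell cannot be told apart. All 5 genes were detected, meaning at least 10 sense counts in each library, which 18.9% of the 1973 counted genes reached.

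Mir335, the Mest intron gene, was counted 435788 times in replicate 1 and 459708 times in replicate 2. These counts are 73522 and 76572 CPM, a mean of 75047 ± 2156 CPM (SD, n = 2). It was the second most abundant miRNA gene of replicate 1 and the first of replicate 2, with 3.51% and 3.63% of all reads of the library, mapped or not. Ranks rest on uniquely mapped reads, so genes annotated in several copies may rank too low, which was not tested. Of the combined sense counts of the 5 genes, Mir335 held 88.1% in replicate 1 and 88.7% in replicate 2. Its level was 7.43-fold and 7.87-fold the sum of the other 4, a log2 ratio of 2.93 ± 0.06 (SD, n = 2).

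At the Nespas and Gnas locus, Mir296 had 30169 and 29591 counts, or 5090 and 4929 CPM. Its mean was 5009 ± 114 CPM (SD, n = 2). Mir298 had 12015 and 10605 counts, or 2027 and 1766 CPM, with a mean of 1897 ± 184 CPM (SD, n = 2). The neighbours differ in level in both libraries without overlap, Mir296 being the higher. Its log2 ratio over Mir298 was 1.33 in replicate 1 and 1.48 in replicate 2, with a mean of 1.40 ± 0.11 (SD, n = 2), or 2.65-fold. For comparison, 64 other pairs of next neighbours among detected miRNA genes lie on the same strand within 1 kb. Their median absolute log2 ratio of mean CPM was 3.06, with quartiles of 1.21 and 4.82, and 17 of them (26.6%) lay closer together than Mir296 and Mir298. As a description, then, the pair stood within the middle range of such neighbours, toward its closer end.

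At the Igf2 and H19 locus, the Igf2 intron gene Mir483 had 15587 and 17324 counts, or 2630 and 2886 CPM. Its mean was 2758 ± 181 CPM (SD, n = 2). The H19 gene Mir675, known in the mouse for restraining growth of the placenta, had 904 and 878 counts. That is 153 and 146 CPM, with a mean of 149 ± 4.4 CPM (SD, n = 2). Exact 95% binomial (Clopper-Pearson) intervals for Mir675 were 143 to 163 CPM in replicate 1 and 137 to 156 CPM in replicate 2, so its libraries were not told apart at this depth. Mir483 stood 17.2-fold and 19.7-fold above Mir675, a log2 ratio of 4.20 ± 0.14 (SD, n = 2). The genes share a strand and a region, and their levels do not come near each other in either library. RNA of the host genes was not measured in these libraries, so no level can be set per host transcript.

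**Figure D2:**
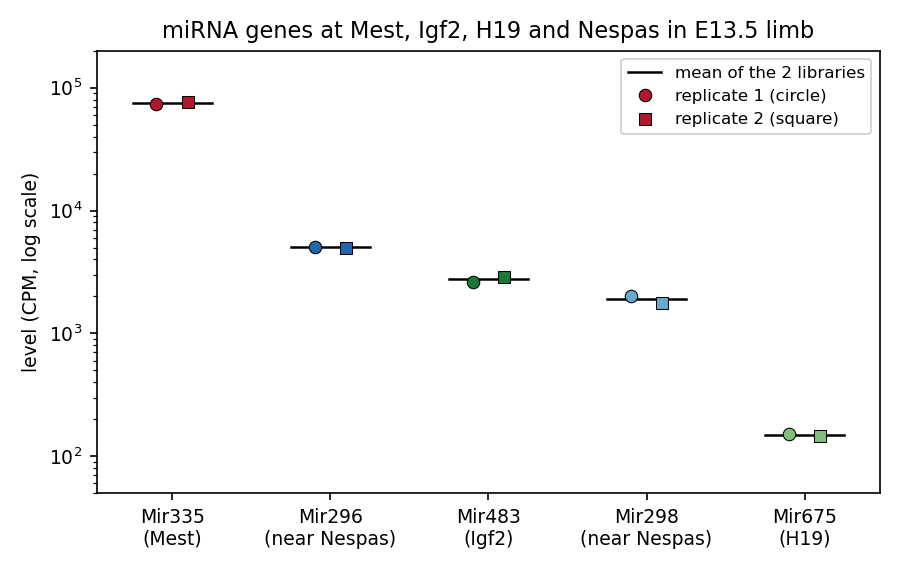
Level of each gene in CPM on a log axis: circles are replicate 1, squares replicate 2 and bars the mean of both. The order Mir335, Mir296, Mir483, Mir298, Mir675 is the same in both libraries, and no 2 genes overlap.

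The order by level was the same in both libraries: Mir335, Mir296, Mir483, Mir298 and Mir675. In each of the 10 pairs of genes the lower value of the higher gene lay above the higher value of the lower gene. The narrowest step was Mir483 over Mir298, a log2 ratio of 0.38 in replicate 1 and 0.71 in replicate 2 (0.54 ± 0.24, SD, n = 2). The widest was Mir335 over Mir675, at 482-fold and 523-fold. With 2 libraries, an exact two-sided test of such a ratio cannot give a p below 0.5, so none was run. Together the 5 genes held 8.34% and 8.63% of sense counts, and without Mir335 the other 4 held 0.990% and 0.973%. Their share is thus in large part the level of Mir335.

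Among all counted miRNA genes, Mir335 ranked 2 by mean level, Mir296 40, Mir483 58, Mir298 73 and Mir675 167. Even Mir675 stood above 205 of the 372 detected genes. Next above Mir335 was Mir196b, a Hox cluster miRNA gene, at 79590 CPM in replicate 1 and 70886 CPM in replicate 2. The order of these genes changed between the libraries. Below it, Mir322 had 65323 and 73813 CPM, lower than Mir335 in each library but overlapping its range, while Mir99a, at 63247 and 62296 CPM, did not overlap. Mir296 was separated from the genes on either side. Mir18 and Mir151 above it had 5444 and 5641 CPM and 5138 and 5634 CPM, and Mir21a below it 4853 and 4572 CPM, without overlap in any of these cases. The gene after Mir21a, Mir423, had 5543 and 3751 CPM and overlapped Mir296. For Mir483, Mir298 and Mir675, all 4 nearest genes in the order overlapped them. These were Mir708, Mir92-1, Mir324 and Mir181a-1 around Mir483, and Mir199b, Mir503, Mir101b and Mirlet7b around Mir298. Around Mir675 they were Mir672, Mir328, Mir362 and Mir363, with means between 148 and 151 CPM. Of these 12 neighbours, Mir708 stood above Mir483 and Mir324 below it in each library, although their ranges overlapped. The order of the other 10 against their gene changed between the libraries.

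**Figure D3:**
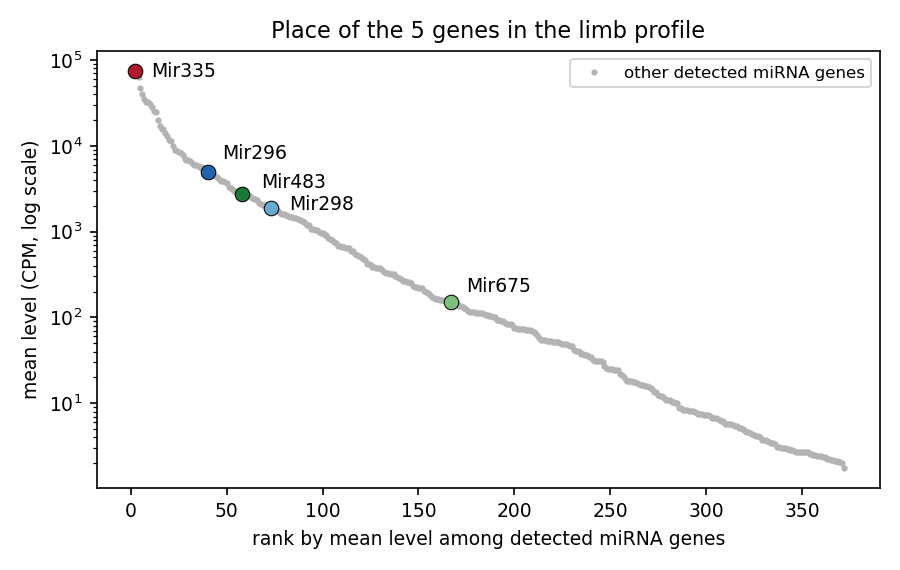
Mean level in CPM (log axis) against rank for the 372 detected miRNA genes, with the 5 genes in colour. Mir335 sits at the top of the curve, Mir296, Mir483 and Mir298 between ranks 40 and 73, and Mir675 at rank 167.

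The replicates differed little for these genes. Relative to replicate 1, replicate 2 was higher for Mir335 (log2 ratio 0.06) and Mir483 (0.13) and lower for Mir296 (-0.05), Mir675 (-0.06) and Mir298 (-0.20). The genes thus did not move together, and Mir483 and Mir675 at the same locus moved apart, although Mir675 did so within counting error. The median absolute log2 ratio over the 190 genes of at least 100 CPM was 0.13. Mir298 was the most variable of the 5, with 73.2% of those genes varying less, and Mir296 the least, with 18.4% varying less. Coefficients of variation ran between 2.27% for Mir296 and 9.72% for Mir298, against a median of 6.15% over the 190 genes.

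In a two-sided exact binomial test over 444 genes with Benjamini-Hochberg adjustment, called at an adjusted p of 0.05 and a log2 ratio of 1 or more in size, 0 of the 5 genes differed between the libraries. Over all genes tested, 3.38% were called. By the adjusted p alone 4 of the 5 passed, and the same 4 had an unadjusted p under 0.05, while 40.3% of all genes and 72.1% of those of at least 100 CPM passed by the adjusted p. Of the 4, 2 were higher and 2 lower in replicate 2, against 18.2% of all genes higher and 22.1% lower. The 4 of 5 is therefore close to what abundant genes show in general. Adjusted p-values from the exact test were 4.12e-81 for Mir335 at a 1.04-fold difference, 4.11e-24 for Mir298 and 0.558 for Mir675. It sets 1 library against the other with counting error as its sole error, so at the depth of Mir335 a difference of a few percent passes it.

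**Figure D4:**
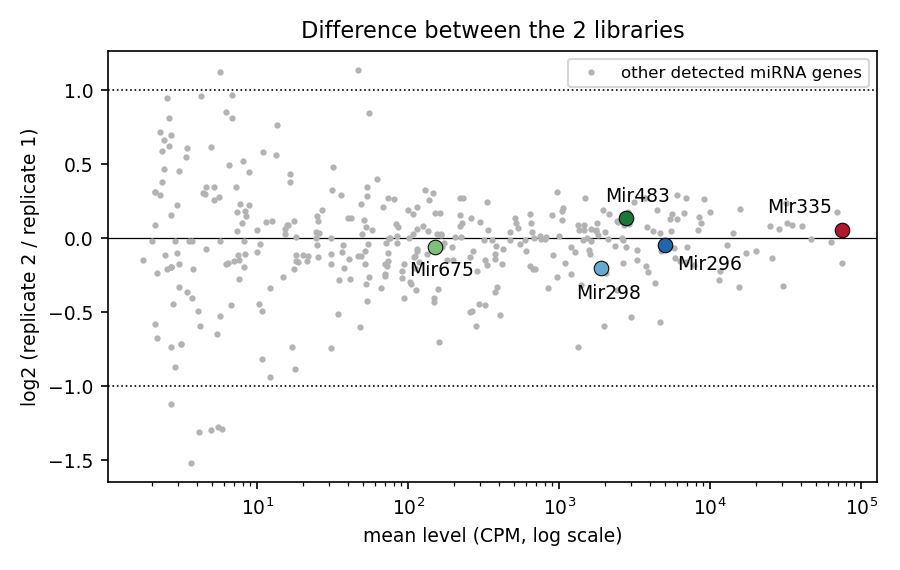
Log2 ratio of replicate 2 over replicate 1 against mean level in CPM (log axis) for the 372 detected miRNA genes, with the 5 genes in colour and dotted lines at the minimum ratio of 1 in either direction. The 5 genes lie between -0.20 and 0.13, inside the spread of genes of like level.

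Antisense reads over the 5 hairpins numbered 4 in replicate 1 and 1 in replicate 2, against 494463 and 518106 sense counts. Over all miRNA genes, antisense reads made up 3.17% and 3.26% of the counts of either strand. That total rests in part on single genes such as Gm24321, with 44698 and 51519 antisense and 0 sense counts. Near absence of antisense reads is not particular to the 5 genes: Mir196b and Mir99a had 0 in each library and Mir322 had 1 and 0. It holds for Mir335 too, with 2 and 1 antisense reads. Copg2 is transcribed from the opposite strand there, but it ends 6.16 kb away and no annotated Copg2 transcript spans the hairpin. No annotated miRNA gene lies opposite any of the 5 within 10 kb.

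Other miRNA genes at imprinted loci give the setting for these levels. A list was drawn from 60 names of imprinted genes, 59 of them in the annotation, as all counted miRNA genes inside such a gene or within 10 kb of it. It held 160 genes, of which 50 (31.3%) were detected, against 18.9% of all counted genes. Its median log2(CPM + 1) was 0, as was that of all counted genes. These pooled values mix unlike loci. At Sfmbt2, 10 of 107 genes (9.35%) were detected, with a median of 0. At Dlk1-Dio3, 79.5% of 44 genes were detected, with a median of 7.57. Mir335, Mir483 and Mir675 are among the 160 listed genes, while Mir296 and Mir298, more than 10 kb from Nespas, fall outside the limit. The 5 genes held 8.49% ± 0.20 of sense counts (SD, n = 2), against 5.78% ± 0.005 in the 44 listed genes at Dlk1-Dio3 and 0.485% ± 0.017 in the 107 at Sfmbt2. Reads that map to several places are in no gene's count. Numbered gene copies, such as those of Mir467a at Sfmbt2, may therefore be undercounted, both in that share and among the detected genes. How far this lowers the Sfmbt2 values was not tested. The lower value of the 5 genes lay above the higher value of the Dlk1-Dio3 genes, but this rests on Mir335: the other 4 held 0.981% ± 0.012. The Dlk1-Dio3 list had 35 of its 44 genes detected and leaves out genes more than 10 kb from a listed gene. Among those left out are abundant ones, such as Mir411 at 10056 ± 883 CPM and Mir379 at 4438 ± 412 CPM (SD, n = 2), named after their values were seen. All 59 counted miRNA genes from Dlk1 to 10 kb past Dio3, a wider set added after seeing the data, held 7.56% ± 0.13, with a higher value of 7.65%. Antisense reads over them, 90516 and 95337, are not in this share. With these reads added, the 59 genes had more counts than the 5 genes in each library. Which of the 2 sets held more thus depends on the strands counted.

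The 8 most abundant listed genes that are not among the 5 all lie at Dlk1-Dio3, with Mir411 and Mir379 outside the list: Mir487b, Mir127, Mir431, Mir369, Mir381, Mir382, Mir541 and Mir134. Their means ran from 12961 ± 283 CPM for Mir487b, the highest, to 1763 ± 44.7 CPM for Mir134 (SD, n = 2). Mir335 thus stood above every listed gene of that cluster in both libraries. Mir296 lay between Mir369 (5735 ± 175 CPM) and Mir381 (4630 ± 77.5 CPM), and by mean Mir483 and Mir298 lay within the range of the 8. In replicate 2, however, Mir298 at 1766 CPM lay below Mir134 at 1794 CPM. Mir675, at 149 ± 4.4 CPM, lay below all 8. The levels of these single genes at separate imprinted loci therefore reached from above every listed gene of the large cluster to far below its leading members. Those 8 were picked for their high means. The 44 listed genes at Dlk1-Dio3 had a median log2(CPM + 1) of 7.57, and Mir675, at 7.23, stood slightly below that median.

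**Figure D5:**
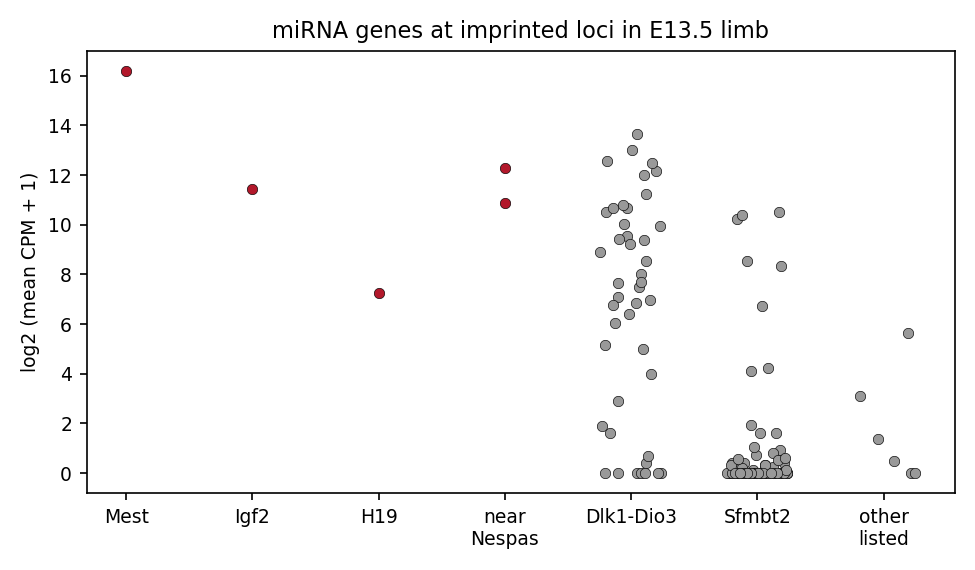
Log2(mean CPM + 1) of each miRNA gene, by imprinted locus, with the 5 genes in red and other listed genes in grey. Mir335 at Mest lies above every other listed gene, Mir296, Mir298 and Mir483 lie among the higher Dlk1-Dio3 genes, and most Sfmbt2 genes lie at or near 0. Reads that map to several places are not counted, so gene copies of like sequence may lie too low.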

How the data were processed

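The deposited values are whole-number read counts per miRNA gene for 2 libraries, with 3 count columns and 4 leading lines for reads in no gene. No header names the columns: by their layout they were read as counts of either strand, sense and antisense, and the first equals the sum of the others in every gene. The labels give mm10 as the build, and a text file beside the counts gives GENCODE M4 as the annotation. How reads were aligned and counted is not given in the sources used here. Reads that map to several places (30.8% and 29.5% of 12407140 and 12657170 reads), unmapped reads (17.2% and 18.6%) and those mapped uniquely but not in sense to any gene, antisense reads included (4.24% and 4.48%), stayed out of library sizes.

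Symbols, spans and hairpins came from GENCODE M21 on GRCm38, and 1894 of 1973 identifiers matched without version. Mature sequences came from RefSeq, which held all 5 genes. The genes and lists were chosen with earlier results of these data known. Genes named by rule are the 5, up to 2 next above and 2 next below each by mean CPM, the 8 highest of the imprinted list and the tissue markers. Any others, among them 4 listed genes in the closing section and the gene sharing the longest stretch, were named after their values were seen. CPM, ratios (after adding 0.5 counts), exact intervals and binomial tests used scipy 1.17.1, dispersions edgeR 4.0.16 and DESeq2 1.42.0, and folding RNAfold 2.7.2. The spread over all detected genes was the biological coefficient of variation from edgeR (intercept only, TMM), 0.111. Neighbour pairs within 1 kb were added after seeing the data. The limit of a 0 count is 3 counts. The binomial test and the edgeR dispersion were also run on simulated counts. The counts simulated for the binomial test held counting error alone, so they do not show how it behaves with spread between replicates. Alternatives were other denominators, scalings, strands, pseudocounts, count minimums and each library alone.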

Additional observations from a re-analysis of the deposited data

How the results depend on the processing

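The combined share of the 5 genes, 8.49% of sense counts, was 4.04% of all reads, 7.77% of uniquely mapped reads and 8.21% of counts of either strand. Without Mir335 in numerator and denominator it was 1.06%. The spread estimate of 0.111 was 0.142 by DESeq2. The number of the 5 genes that differed between libraries, 0 with the minimum ratio, was 4 without it, also with TMM or DESeq2 scaling, alternatives added after seeing the data. Without the minimum ratio 179 of 444 genes passed in place of 15. The 3 log2 ratios, the 5 detected genes and the 50 detected listed genes stayed within the spread of the libraries, or 1.5 times for counts, under other pseudocounts, strands, count minimums and a distance of 0 to the imprinted gene. Each library alone lies within the spread of 2 libraries by arithmetic, so that setting shows nothing. Levels in CPM moved by less than the spread for 5 of 5 genes with TMM or DESeq2. They moved by more for 5 of 5 per all reads, 4 of 5 per uniquely mapped reads, 3 of 4 with Mir335 out of the denominator and 3 of 5 with either strand. No paired analysis was possible because there is 1 group. Depth limits Mir675 most, with 904 and 878 counts.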

Other observations

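Outside Dlk1-Dio3 and Sfmbt2, the list held few miRNA genes besides Mir335, Mir483 and Mir675, and all of them are given here. Mir3099 and Gm23134 reached the detection minimum and the others did not, a minimum that 18.9% of all counted genes reached. Mir3099, inside Usp29, had 265 and 315 counts in replicates 1 and 2, a mean of 48.6 ± 5.5 CPM (SD, n = 2). Gm23134, which overlaps Blcap and Nnat, had 42 and 50 counts. Mir653 and Mir489, both inside Calcr, had 14 and 5 counts and 2 and 3 counts. The single listed genes at Airn and Zdbf2 had 0 sense counts in both libraries, which leaves room for levels of 0.506 and 0.4997 CPM at this depth. Mir335, Mir483 and Mir675 were thus the 3 most abundant listed genes outside the large clusters, in both libraries.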
